A study of Homo sapiens with 9 samples.

Results

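LSM3, ING5, APOPT1, MGST3, NFASC, PLEKHG2 and SYNE2 are the protein-coding genes with an annotated transcript that shares at least 18 contiguous bases with the sense strand of LINC00673-siRNA2, an siRNA designed against the long noncoding RNA LINC00673. They are 7 of the 19930 genes with values in the deposited table and 7 of the 19940 coding genes whose GENCODE transcripts were searched. The rule rests on sequence and uses no expression value, though it was set with earlier results of these data known. Human breast cancer cells labelled MDA-MB-453, an established line, were transfected with a control siRNA (si-NC) or with siRNA against LINC00673, and RNA from 3 libraries per group was sequenced on the BGISEQ-500 platform. The treatment notes in the labels give a harvest 48 h after transfection, written for qRT-PCR. The 3 groups carry the labels X453_NC, X453_1 and X453_2. The labels number the knockdown groups 1 and 2 and do not state which siRNA each received, so they are called si-LINC00673-1 and si-LINC00673-2 here by number alone, and every statement on siRNA 2 rests on that reading. The concentration of siRNA is not given in the sources used here. LINC00673 itself was not analysed here.

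An siRNA is a short double-stranded RNA. One of its strands, the guide, is loaded into an Argonaute protein and pairs with messenger RNA. Where pairing runs through the middle of the guide, the Argonaute protein AGO2 can cut the message, and where mainly the seed near the guide's 5′ end pairs with a 3′ UTR, the message can be translated less and degraded faster. An siRNA can therefore lower messages other than the intended one, and a second siRNA with another sequence is the usual comparison for such effects. The 7 genes were accordingly examined for whether their level in si-LINC00673-2 cells was below that in both si-NC and si-LINC00673-1 cells.

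The strands of LINC00673-siRNA2 are shown first, since every site below is defined by them, with the seed of the guide (bases 2 to 8) in capitals.
siRNA 2 guide (antisense): uUAUUAUUugagacagggucu
siRNA 2 sense: agacccugucucaaauaauaa

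The sites of 4 of the genes are shown next with 4 bases before each, because the sites decide which guide bases can pair. Capitals mark the contiguous run shared with the siRNA 2 sense strand, with T for U. Lower case marks the other transcript bases. Some lower-case bases just after the run also face the siRNA, and part of these are identical to it.
LSM3 (LSM3-201): aacaAGACCCTGTCTCAAATAATActtag
APOPT1 (APOPT1-201): agccAGACCCTGTCTCAAATAAaaattta
MGST3 (MGST3-214): agcaAGACCCTGTCTCAAATAAataaaaa
NFASC (NFASC-208): acagAGACCCTGTCTCAAATAAataaaat

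All 7 runs began at the first base of the sense strand and so would pair with the 3′ end of the guide. LSM3 had the longest run, 20 bases, which would pair with guide positions 2 to 21 and covered all 7 bases of the seed, and its only difference from the siRNA was A21C (sense-strand base, position counted from 1 at the 5′ end of the sense strand, transcript base). In the other 6 genes the run was 18 bases, facing guide positions 4 to 21 and holding 5 of the 7 seed bases. APOPT1 differed from the sense strand by T19A alone, which left 20 of 21 bases identical. MGST3 and NFASC differed by T19A and A20T, which left 19. Guide positions 10 and 11, between which AGO2 cuts, lay within the run in all 7 genes.

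The sites lay in different kinds of transcript, and this set what a gene-level value could show. Positions are from a match of the sequences to GENCODE release 29 transcripts on GRCh38, all on the plus strand. The LSM3 site was in the last of 4 exons, in the 3′ UTR, at chr3:14200954-14200973, 2838 bases after the coding sequence of the only LSM3 transcript in GENCODE. The deposited table counted LSM3 over a transcript of 695 bases, while the GENCODE transcript has 3815, so the site at bases 3650 to 3669 lay outside a counted sequence of that length. The ING5 site was in the 3′ UTR of ING5-202 and in the noncoding ING5-212, which are 2 of 13 transcripts. The APOPT1 site (chr14:103591443-103591460) was in the 3′ UTR of 1 of 16 transcripts, and the MGST3 site (chr1:165656096-165656113) in the 3′ UTR of 1 of 14. The remaining 3 sites were in transcripts with no annotated coding sequence: the processed transcript NFASC-208 (chr1:205010577-205010594, 1 of 25 transcripts), the retained-intron transcript PLEKHG2-207 (1 of 16) and the retained-intron transcript SYNE2-223 (1 of 28).

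No coding transcript of NFASC, PLEKHG2 or SYNE2 held the site. It fell in an intron of 12 of the 14 coding transcripts of NFASC, of 5 of 13 for PLEKHG2 and of 4 of 12 for SYNE2, and for 8 of the coding transcripts of PLEKHG2 and 8 of SYNE2 it lay outside the transcript altogether. Only ING5 and APOPT1 had a site-bearing transcript, apart from LSM3-201, among those GENCODE links to the RefSeq accessions that the table lists for the gene. The table also lists predicted transcripts for ING5, APOPT1, PLEKHG2 and SYNE2, whose sequences were not analysed here.

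**Figure D1:**
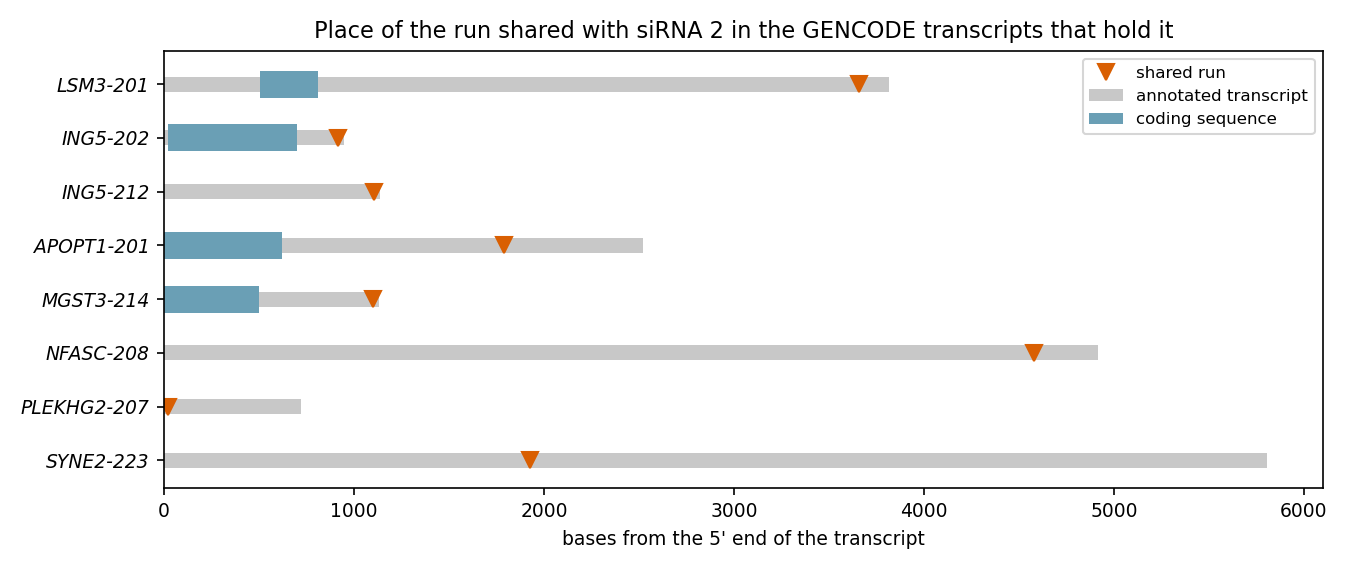
Bars show the GENCODE transcripts that hold the run shared with siRNA 2, in bases from the 5′ end, with coding sequence in blue and the run as a triangle. The run lies after the coding sequence in LSM3-201, ING5-202, APOPT1-201 and MGST3-214, and the other 4 transcripts have no annotated coding sequence.

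The letters of the shared run match a form of the 3′ end of the Alu element, a family of interspersed repeats of primate genomes. No repeat annotation was used here. The 100 bases before the run were compared between the 6 genes with a long enough transcript, which leaves out PLEKHG2. Identity was 57.8% to 77.2% in the 10 pairs without LSM3 and 48.6% to 53.7% in the 5 pairs with LSM3. A window of the same length that began 400 bases farther upstream gave 41.3% to 53.6% over all 15 pairs. ING5 and MGST3 were the most alike. The pairs with LSM3, the gene with the longest run, lay at most 4.1 percentage points above their own far-window values, and the pair with NFASC lay below its far-window value.

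The search also placed the 7 genes among all others. At least 14 contiguous bases of siRNA 2 were found in 375 coding genes, at least 16 in 11 and at least 17 in the same number as at least 18, namely 7. LINC00673-siRNA1 reached 14 bases in 2 coding genes, of which CLK1 was tested, and the control siRNA in 1, and neither reached 16. The 7 letters complementary to the siRNA 2 seed, AAUAAUA, were in an annotated 3′ UTR of 22.6% of coding genes (4318 of 19151). Among noncoding genes, AC093525.9 held all 21 bases and LINC00910 held 18, and neither symbol had a line in the table.

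The libraries were checked before the comparison. The spacing of the lowest FPKM values put depth at about 23.4 to 27.9 M fragments per library. Pearson's r of log2(FPKM + 1) was 0.995 to 0.996 within groups and 0.955 to 0.990 between groups, across genes, which are not independent replicates, and no pair of libraries was identical. Of the markers used for this luminal line, KRT8 (3011 to 3773 FPKM), KRT18, KRT19, EPCAM, ERBB2 (11.8 to 17.8 FPKM) and FGFR4 were present. FOXA1, a transcription factor that defines luminal breast cancer cells, was at most 0.04 FPKM in any library, SPDEF was 0.57 to 1.24 FPKM and VIM, a mesenchymal marker, was 366 to 441 FPKM. The data thus went against part of the label, and the cells are called the libraries labelled MDA-MB-453. The summed level of the 8 markers of other cells that have a line was 370 to 396 FPKM in si-NC, 438 to 447 in si-LINC00673-1 and 431 to 447 in si-LINC00673-2, nearly all of it VIM. COL1A1, a fibroblast gene, rose with both siRNAs (3.83 ± 0.319, 5.54 ± 0.272 and 6.47 ± 0.897 FPKM in si-NC, si-LINC00673-1 and si-LINC00673-2). KRT18, ERBB2 and FGFR4 fell with si-LINC00673-2 against si-NC (-0.48, -0.45 and -0.71), though none of the 3 with the GC correction and FGFR4 alone by median-ratio scaling. KRT18 and FGFR4 also fell with si-LINC00673-1 (-0.46 and -0.53), though not with the GC correction (-0.37 and -0.17). None of the 3 passed between the siRNAs. The part of these shifts in the results below was not tested. PTPRC, COL3A1, DCN and CDH2 were at or near 0 in every library.

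Levels are FPKM, fragment numbers divided by transcript length and by the library's total, so each is relative to that total. Differences are in log2(FPKM + 1), from limma over the 12884 genes that averaged 1 FPKM or more. A gene is said to have risen or fallen where the fold change of FPKM + 1 was at least 1.3 (0.38 on the log2 scale). The unadjusted P also had to be at most 0.05. Both numbers are those of the study, which does not state the scale of its fold change. Adding 1 FPKM makes the fold limit stricter for genes at low FPKM. Benjamini-Hochberg adjusted P values over all genes tested are printed. Nothing in the labels says that the 3 libraries of a group were separate cultures, so P values measure the spread between these libraries, which may be technical. An exact permutation test of 3 against 3 libraries cannot go below 0.1. The comparisons of both siRNAs with si-NC share the si-NC libraries.

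No member fell in si-LINC00673-2 cells against both other groups, where 3.48% of all genes tested did. With so few members, this count was not tested against that share. It also depends on the 1 FPKM added before the logarithm. With 0.1 FPKM added in its place, PLEKHG2 fell against both groups, where 6.83% of all genes did. NFASC was too low to be tested, so 6 of the 7 genes were. Against si-NC, ING5 and PLEKHG2 fell and LSM3 and MGST3 rose with si-LINC00673-2, while APOPT1 and SYNE2 did not pass. Against si-LINC00673-1, no member passed in either direction, where 5.45% of all genes tested fell and 2.19% rose.

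**Figure D2:**
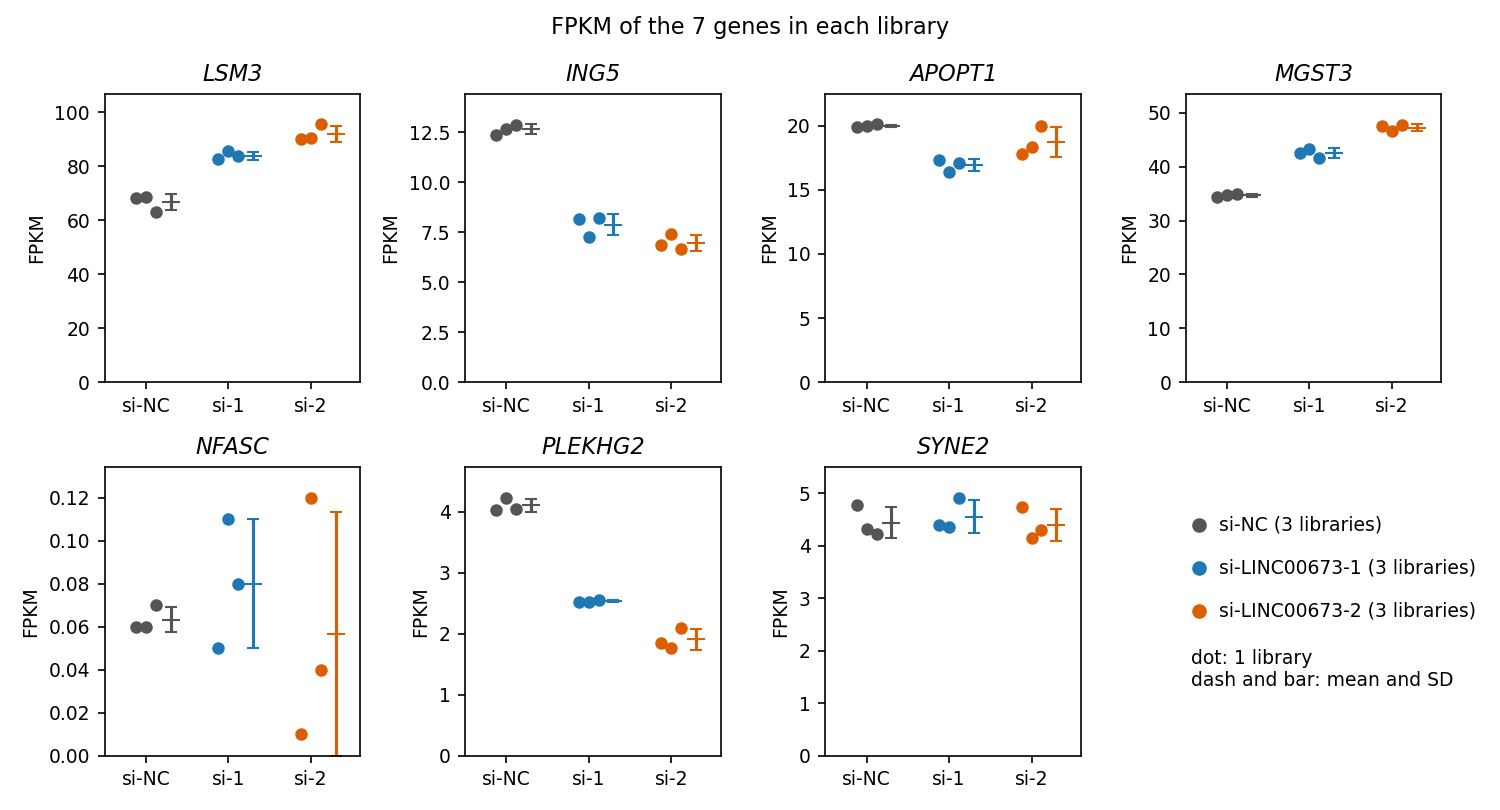
Dots give the FPKM of the 7 genes in each of the 9 libraries, by group (si-1 and si-2 stand for si-LINC00673-1 and si-LINC00673-2), and dashes with bars give mean and SD (n = 3). The dots of PLEKHG2 in si-LINC00673-2 lie between 1.77 and 2.10, below those of both other groups, and the dots of LSM3 and MGST3 lie above them.

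LSM3 is a subunit of both LSM rings, one of which promotes decay of messenger RNA in the cytoplasm and one of which binds U6 RNA in the spliceosome. It was 68.24, 68.67 and 63.18 FPKM in si-NC, 82.47, 85.44 and 83.77 in si-LINC00673-1 and 90.21, 90.31 and 95.43 in si-LINC00673-2. The groups did not overlap, and the gene with the longest match to siRNA 2 was highest in the siRNA 2 libraries. Mean FPKM was 66.7 ± 3.05 (SD, n = 3), 83.9 ± 1.49 and 92.0 ± 2.99, from an estimated 1055 to 1355 fragments per library. The difference between si-LINC00673-2 and si-NC was 0.46 ± 0.039 (SE; 95% interval 0.37 to 0.54; limma adjusted P = 3.38e-06), a rise. Between the siRNAs it was 0.13 (0.045 to 0.22; adjusted P = 0.0206), higher with si-LINC00673-2 but under the fold limit, and its interval lay above 0.

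MGST3 is a microsomal glutathione transferase that conjugates glutathione to leukotriene precursors and reduces lipid peroxides. Its FPKM was 34.43, 34.75 and 35.01 in si-NC, 42.56, 43.37 and 41.58 in si-LINC00673-1 and 47.55, 46.61 and 47.66 in si-LINC00673-2. These groups were also separate and in the same order as for LSM3. The means were 34.7 ± 0.291, 42.5 ± 0.896 and 47.3 ± 0.577 FPKM (SD, n = 3), a rise of 0.43 ± 0.028 (SE; adjusted P = 6.23e-07) for si-LINC00673-2 over si-NC, with 0.15 (95% interval 0.087 to 0.21; adjusted P = 0.0023) between the siRNAs. LSM3 and MGST3 were thus 2 of 6 members, 33.3%, that rose against si-NC, where 11% of all genes tested did. Their si-LINC00673-2 libraries were above all 6 others, as in 8.7% of all genes.

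PLEKHG2 is a guanine nucleotide exchange factor for the small GTPases CDC42 and RAC1 and is activated by G protein beta-gamma subunits. It measured 4.04, 4.23 and 4.05 FPKM in si-NC, 2.53, 2.53 and 2.56 in si-LINC00673-1 and 1.85, 1.77 and 2.10 in si-LINC00673-2. All 3 si-LINC00673-2 libraries lay below the 6 others, the only member with this order, which 26.1% of all genes tested had. Mean FPKM was 4.11 ± 0.107, 2.54 ± 0.0173 and 1.91 ± 0.172 (SD, n = 3). PLEKHG2 fell in si-LINC00673-2 cells by 0.81 ± 0.055 (SE) on the log2 scale against si-NC (adjusted P = 8.04e-07) and in si-LINC00673-1 cells by 0.53 (adjusted P = 2.01e-05).

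Between the siRNAs PLEKHG2 differed by -0.29 in log2(FPKM + 1) (95% interval -0.41 to -0.16, limma adjusted P = 0.00266), which did not reach the fold limit. Its mean FPKM was 24.9% lower in si-LINC00673-2. That ratio of means, 0.751 with nothing added, was past the limit. With 0.1 FPKM added before the logarithm in place of 1, the difference was -0.40 and passed the limit. PLEKHG2 was then lower than in both groups, where 6.83% of all genes were. The site-bearing PLEKHG2 transcript was 720 bases of the gene's annotation and could not be measured apart from the others. The 3 genes most like PLEKHG2 over the 9 libraries, chosen after its values were seen, were SLC16A13 (Pearson's r = 0.998), MYL9 and MAP4K2, none with a run of 12 bases of siRNA 2, and 2118 of 11402 named genes had r above 0.9 with it.

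ING5 is a PHD finger protein that binds trimethylated histone H3 and a subunit of the KAT7 and KAT6 acetyltransferase complexes. It was 12.37, 12.65 and 12.87 FPKM in si-NC, 8.17, 7.25 and 8.21 in si-LINC00673-1 and 6.85, 7.40 and 6.64 in si-LINC00673-2. Both siRNA groups were below si-NC, and they overlapped with each other. The means were 12.6 ± 0.251, 7.88 ± 0.543 and 6.96 ± 0.392 FPKM (SD, n = 3). ING5 fell by 0.78 ± 0.054 (SE) with si-LINC00673-2 (adjusted P = 9.81e-07) and by 0.62 with si-LINC00673-1 (adjusted P = 6.18e-06). It shares no run of 14 bases with siRNA 1, and the cause of either fall was not tested. The difference between the siRNAs was -0.16 (95% interval -0.28 to -0.035; adjusted P = 0.0399). It was -0.061 (adjusted P = 0.38) when each library was divided by its median ratio over expressed genes and -0.082 (adjusted P = 0.226) after a correction for GC content.

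ING5 and PLEKHG2 were 2 of 6 members that fell against si-NC with si-LINC00673-2, where 23.1% of all genes tested fell, and the same 2 of 6 that fell with si-LINC00673-1, where 15.6% did. None rose with si-LINC00673-1, where 11.1% of all genes did.

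APOPT1, also called COA8, is a mitochondrial protein needed for assembly of cytochrome c oxidase. Like ING5, it has a site-bearing GENCODE transcript linked to an accession that the table lists, though the sequence of that accession was not analysed here. Its FPKM was 19.90, 19.97 and 20.10 in si-NC, 17.30, 16.37 and 17.09 in si-LINC00673-1 and 17.79, 18.35 and 20.01 in si-LINC00673-2. The si-LINC00673-2 libraries reached into the si-NC range at their top and lay above all 3 si-LINC00673-1 libraries. The means were 19.99 ± 0.101, 16.9 ± 0.488 and 18.7 ± 1.15 FPKM (SD, n = 3). The difference from si-NC was -0.092 (95% interval -0.19 to 0.0069; adjusted P = 0.087) with si-LINC00673-2 and -0.23 (adjusted P = 0.00121) with si-LINC00673-1, both under the fold limit. Between the siRNAs it was 0.14 (0.038 to 0.24; adjusted P = 0.0306), with the higher level in si-LINC00673-2 cells.

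SYNE2 encodes nesprin-2, a giant protein of the outer nuclear membrane that links the nucleus to actin through the LINC complex, the linker of nucleoskeleton and cytoskeleton. It was 4.77, 4.32 and 4.23 FPKM in si-NC, 4.40, 4.35 and 4.91 in si-LINC00673-1 and 4.74, 4.15 and 4.30 in si-LINC00673-2, with all 3 groups overlapping. The means were 4.44 ± 0.289, 4.55 ± 0.310 and 4.40 ± 0.307 FPKM (SD, n = 3). The difference of si-LINC00673-2 was -0.012 from si-NC (95% interval -0.15 to 0.13; adjusted P = 0.878) and -0.041 from si-LINC00673-1 (-0.18 to 0.10; adjusted P = 0.62), so that falls as large as that of PLEKHG2 lay outside both intervals.

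NFASC encodes neurofascin, an adhesion molecule of the L1 family at nodes of Ranvier and axon initial segments. It was 0.06, 0.06 and 0.07 FPKM in si-NC, 0.05, 0.11 and 0.08 in si-LINC00673-1 and 0.01, 0.12 and 0.04 in si-LINC00673-2, which at its longest listed transcript is 3 to 30 fragments per library. The 3 groups overlapped, the SD in si-LINC00673-2 (0.0569 FPKM) was as large as the mean (0.0567), and no difference was detectable at this depth.

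**Figure D3:**
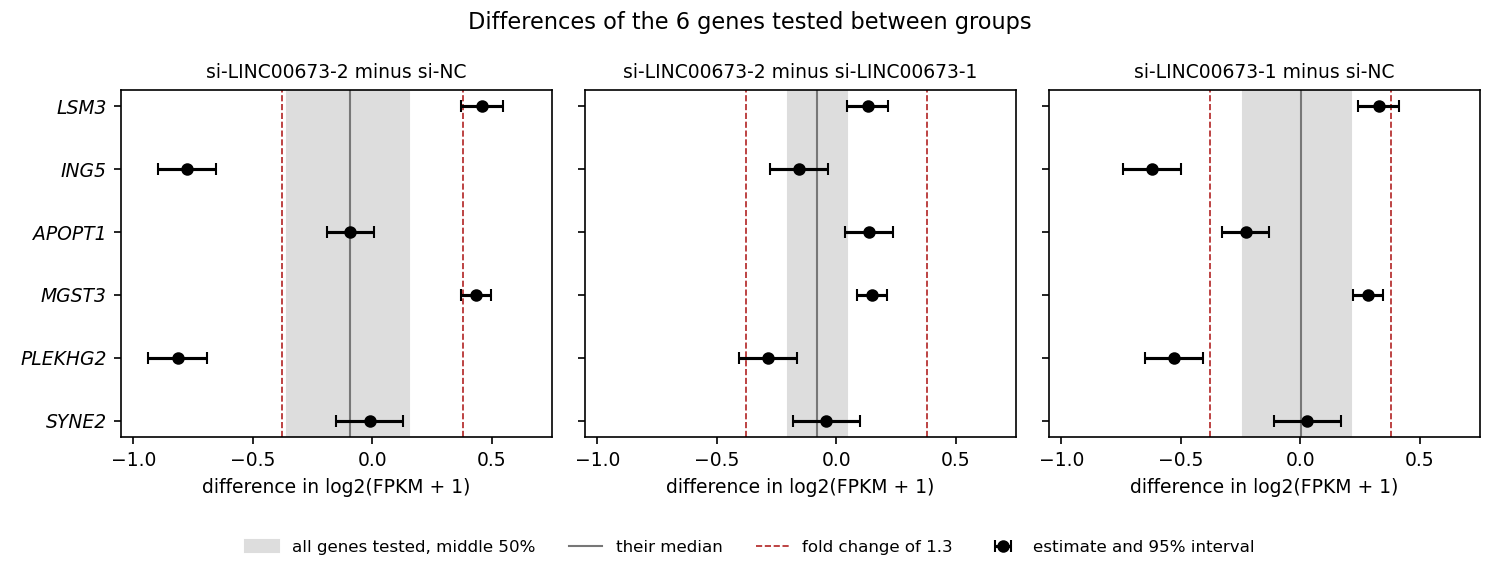
Points give the difference in log2(FPKM + 1) for the 6 genes tested with its 95% interval, in 3 comparisons, beside the middle 50% and the median of all genes tested (grey) and the fold limit of 1.3 (dashed). In the comparison of the siRNAs every point lies inside the dashed lines, with LSM3, APOPT1 and MGST3 above 0 and ING5, PLEKHG2 and SYNE2 below.

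The median of the 6 members was -0.052 against si-NC, beside -0.095 for all genes tested, 0.045 between the siRNAs, beside -0.081, and -0.099 for si-LINC00673-1 against si-NC, beside 0.0032. With no limit on the fold change, 2 members (ING5 and PLEKHG2) were lower and 3 (LSM3, APOPT1 and MGST3) higher in si-LINC00673-2 than in si-LINC00673-1 at an unadjusted P of at most 0.05, where 39.3% and 12.7% of all genes were. ING5 and PLEKHG2 were then lower than in both groups, as were 25.6% of all genes, and LSM3 and MGST3 were higher than in both groups, as were 8.06%. With the fold limit kept, no member rose against both groups, where 1.47% of all genes did. At an adjusted P of at most 0.05 with no fold limit, 5 of the 6 members differed between the siRNAs in one direction or the other, where 44% of all genes did.

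On the deposited scale the median difference of all genes was below 0 in both comparisons of si-LINC00673-2. Scaling by the median ratio, which centres the typical gene by construction, moved the median of all genes between the siRNAs from -0.081 to 0.01 and the share of falls among calls from 71.3% to 38%, and against si-NC that share moved from 67.8% to 53.2%. On this scale the difference between the siRNAs was 0.24 for LSM3, 0.24 for APOPT1, 0.26 for MGST3 and -0.21 for PLEKHG2, none past the fold limit.

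Match length was set beside the differences between the siRNAs as a description. The median was -0.084 in 10712 coding genes with no run of 12 bases and -0.11 in 362 with 12 to 13. It was -0.13 in 278 with 14 to 15, -0.105 in 2 with 16 to 17 and 0.045 in the 6 members tested. The quartiles of the members were -0.127 and 0.135. Against si-NC the medians of these classes were -0.10, -0.15, -0.17, -0.89 and -0.052. The classes up to 15 bases also differed in median GC content (49.5%, 48.4% and 45.7%) and 3′ UTR length (1290.5, 2081 and 2468 bases). The part of these in the medians was not tested. Of the genes with 16 bases, OBSL1 (34.4 ± 2.40, 15.4 ± 1.26 and 13.8 ± 1.64 FPKM in si-NC, si-LINC00673-1 and si-LINC00673-2) and SUGP1 were tested. Both fell against si-NC with either siRNA, and neither passed between the siRNAs (adjusted P = 0.177 and 0.589). SUGP1 no longer passed against si-NC with the GC correction (-0.35 and -0.36). Genes whose 3′ UTR holds the seed letters had a median of -0.13 (n = 2677, 6.28% fell), and those whose 3′ UTR does not had -0.072 (n = 8663, 5.08% fell). Against si-NC the order was the opposite, with -0.076 (15.8% fell) for the seed class and -0.12 (25.6% fell) for the other. The seed class also had a median GC content of 42.3% against 52.4% and a median 3′ UTR of 2882 bases against 1022, and the part of these in the difference was not tested. Of the members, only LSM3 had the full seed match within its run.

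**Figure D4:**
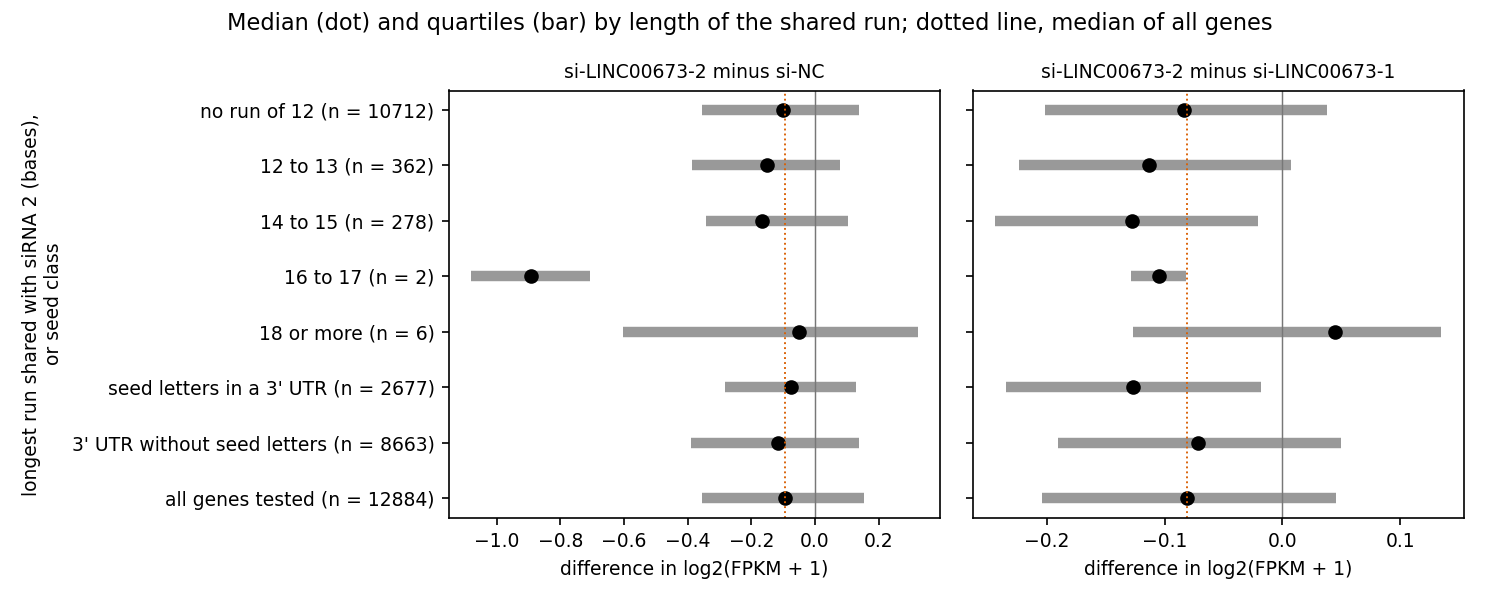
Dots and bars give the median and quartiles of the difference in log2(FPKM + 1) for coding genes by the longest run shared with siRNA 2 and by seed letters in the 3′ UTR, for si-LINC00673-2 against si-NC (left) and against si-LINC00673-1 (right). On the right the class of 18 or more bases (6 genes) has its median at 0.045, above that of all genes at -0.081, and the class of 16 to 17 holds 2 genes.

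The reverse strand of siRNA 2 shared 18 bases with MYO10, NAIP, ALG9 and HELZ. NAIP, an inhibitor of apoptosis and inflammasome sensor, fell with si-LINC00673-2 against si-NC (4.38 ± 0.117 to 2.64 ± 0.0473 FPKM), where 23.1% of all genes tested fell. HELZ went the other way, by 0.34 under the fold limit, and passed by median-ratio scaling (0.44) and with the GC correction (0.40). HELZ also rose with si-LINC00673-1 (0.42), though not with the GC correction (0.34). MYO10 (0.089) and ALG9 (-0.094) did not pass against si-NC. NAIP differed by -0.31 between the siRNAs, and none of the 4 passed between the siRNAs. CLK1, a kinase that phosphorylates splicing factors and the tested gene with 14 bases of siRNA 1, differed by 0.040 between si-LINC00673-1 and si-NC (adjusted P = 0.327).

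The members were then set beside other genes of their families and genes of complexes or processes they belong to. For every list below, the shares of all genes tested are the background. Against si-NC, 23.1% fell and 11% rose with si-LINC00673-2, and 15.6% fell and 11.1% rose with si-LINC00673-1. Between the siRNAs 5.45% fell and 2.19% rose. No list was tested against these shares. Of the 7 other LSM ring genes none passed in any of the 3 comparisons, although with the GC correction LSM4 and LSM7 rose against si-NC (0.43 and 0.53), as LSM3 did, and by median-ratio scaling LSM7 rose against si-LINC00673-1 (0.41). The difference between LSM3 and the other subunits was not tested. The 3 genes most like LSM3 over the 9 libraries were CYCS, which encodes cytochrome c (r = 0.994), MYL6, a myosin light chain, and CMC2, which shares a run of 12 bases with siRNA 2, and 1065 of 11402 named genes had r above 0.9 with it.

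Of 13 genes of the ING family and the MYST acetyltransferase complexes, ING3 and JADE2 fell with si-LINC00673-2 against si-NC. None passed between the siRNAs. JADE2 no longer passed by median-ratio scaling (-0.35) or with the GC correction (-0.30). ING4, the closest relative of ING5, was 34.0 ± 0.401, 26.8 ± 0.883 and 28.2 ± 1.29 FPKM in si-NC, si-LINC00673-1 and si-LINC00673-2. Its difference of -0.27 between si-LINC00673-2 and si-NC (limma adjusted P = 0.000175) was under the fold limit. With si-LINC00673-1 against si-NC, ING3 fell too (-0.42) and JADE3 rose (0.39). JADE3 did not pass there with the GC correction (0.32).

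Of 22 cytochrome c oxidase assembly genes, 4 fell (COA5, COA7, COX19 and SCO2) and 3 rose (COX14, COX16 and CMC1) with si-LINC00673-2 against si-NC. Among all genes tested 23.1% fell and 11% rose in that comparison. COA7 and SCO2 also fell against si-LINC00673-1, and 3.48% of all genes tested fell against both groups. COA7, an assembly factor of respiratory complexes, was 5.00 ± 0.105, 5.58 ± 0.311 and 2.59 ± 0.311 FPKM in si-NC, si-LINC00673-1 and si-LINC00673-2, a difference of -0.74 from si-NC (adjusted P = 4.7e-06) and -0.87 from si-LINC00673-1 (adjusted P = 1.68e-05). COA7 shares no run of 12 bases with siRNA 2. SCO2, which delivers copper to the oxidase, was 2.53 ± 0.237, 2.79 ± 0.702 and 1.70 ± 0.298 FPKM. The fall of SCO2 against si-NC did not pass by median-ratio scaling (-0.32) and was 0.031 with the GC correction. COX19 no longer passed under either (-0.32 and -0.33), and COX14 rose against si-LINC00673-1 under both (0.47 and 0.44). With si-LINC00673-2 against si-NC, COX17 rose by median-ratio scaling (0.43) and PET100 with the GC correction (0.40). With si-LINC00673-1 against si-NC, COX16 and CMC1 rose (0.40 and 0.38) and SURF1 fell (-0.44). None of them passed there with the GC correction (0.32, 0.28 and -0.36), nor did CMC1 by median-ratio scaling. SCO2 rose in that comparison with the GC correction (0.49).

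Among the MAPEG family, to which MGST3 belongs, ALOX5AP and PTGES rose with si-LINC00673-2 against si-NC, of 4 genes tested, where 11% of all genes tested rose. ALOX5AP, which presents arachidonic acid to 5-lipoxygenase, also rose against si-LINC00673-1 from a low level (0.920 ± 0.101, 1.11 ± 0.199 and 1.75 ± 0.257 FPKM in si-NC, si-LINC00673-1 and si-LINC00673-2; adjusted P = 0.000659 and 0.00836). PTGES also rose with si-LINC00673-1 against si-NC (0.48), where 11.1% of all genes tested rose. MGST1 and MGST2 did not pass in any comparison.

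Of 8 tested genes of the PLEKHG family and its partners, PLEKHG4 (4.11 ± 0.103, 2.43 ± 0.0723 and 2.01 ± 0.271 FPKM) and PLEKHG5 fell with si-LINC00673-2 against si-NC, PLEKHG4 fell with si-LINC00673-1 too, and none passed between the siRNAs. PLEKHG5 no longer passed by median-ratio scaling (-0.31) or with the GC correction (-0.049), nor did PLEKHG4 in si-LINC00673-1 cells with the latter (-0.28). CDC42 (0.29 against si-NC with si-LINC00673-2, 0.39 by median-ratio scaling, where it passed) and RAC1 did not pass. Of 7 tested LINC complex genes, SUN2 and TOR1A fell with either siRNA against si-NC and none passed between them. With the GC correction LMNA also rose with si-LINC00673-2 (0.54). SYNE1, the closest relative of SYNE2, was 0.280 ± 0.01, 0.707 ± 0.177 and 0.533 ± 0.123 FPKM and too low to be tested. Of 3 tested genes of the L1 family and neurofascin partners, none passed in any comparison, but with the GC correction L1CAM rose with si-LINC00673-1 (0.38).

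The proteins that use the siRNA were measured as well. Of 9 silencing genes AGO4 fell with either siRNA against si-NC, AGO2 and TNRC6B rose with si-LINC00673-1, and none passed between the siRNAs. AGO4 did not pass with si-LINC00673-2 by median-ratio scaling (-0.33) or with the GC correction (-0.37), nor TNRC6B with the latter (0.32). AGO2, the Argonaute that cuts, was 13.2 ± 0.876 FPKM in si-NC, 19.6 ± 0.828 in si-LINC00673-1 and 15.8 ± 0.760 in si-LINC00673-2, a difference of -0.30 between the siRNAs (adjusted P = 0.00204), under the fold limit.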

How the data were processed

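RNA of 9 libraries (3 groups of 3) was examined. The authors deposited 1 table of FPKM per gene, rounded to 2 decimals and given 2 times with equal values; the first set was used. The submitters' processing notes name Bowtie2 and GRCh37.p13; how fragments were counted, and whether by strand, is not given in the sources used here. Columns with log2 ratios, P and Q values for the authors' own comparisons were not used, and 4 lines without values were left out. Multi-transcript genes have 1 value, so a site-bearing transcript cannot be measured apart.

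The siRNA strands come from the study's oligo list. The longest shared run was sought in 206694 GENCODE release 29 transcripts (GRCh38), with runs from 12 bases kept; the table's coordinates were not used. Of the table's lines 16716 were joined to GENCODE by symbol, 320 by gene number and 2894 not at all. Fits used log2(FPKM + 1), only genes averaging 1 FPKM or more, all 9 libraries and limma 3.58.1 in R 4.3.3 (lmFit, eBayes with trend, two-sided). Other steps used Python 3.11.15, pandas 2.3.3, numpy 2.4.6 and matplotlib 3.10.9. Scripts were tested on simulated data. Depth was estimated from single-transcript genes; fragments of genes with several transcripts use the longest and are upper estimates. Members and lists were chosen with earlier results of these data known. Named were every member, genes with runs of at least 17 bases or 14 of siRNA 1, the 3 genes most like LSM3, and list genes called in both siRNA 2 comparisons or closest paralogs; others named were chosen after their values were seen. Some genes and site sequences are not reported here.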

Additional observations from a re-analysis of the deposited data

Results flagged for a closer look

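In 5 of the 6 genes tested the difference of si-LINC00673-2 from si-NC was not the same as that of si-LINC00673-1, by the direct comparison of the siRNAs in limma (adjusted P of at most 0.05, as in 44% of all genes tested). On the log2 scale, si-LINC00673-2 minus si-LINC00673-1 was 0.131 for LSM3, 0.1502 for MGST3, 0.1366 for APOPT1, -0.156 for ING5 and -0.286 for PLEKHG2 (adjusted P = 0.0206, 0.0023, 0.0306, 0.0399 and 0.00266). All 3 si-LINC00673-2 libraries lay above the 3 of si-LINC00673-1 for LSM3, APOPT1 and MGST3 and below them for PLEKHG2, and ING5 overlapped. The share of all genes separated in this way between the siRNAs was not counted, so no weight is put on it. Leaving out 1 library at a time, the largest adjusted P was 0.0738 for LSM3 (without si-LINC00673-2 replicate 2), 0.105 for APOPT1 (without si-LINC00673-1 replicate 1), 0.13 for ING5 (without si-LINC00673-1 replicate 2), 0.0127 for MGST3 and 0.0117 for PLEKHG2. ING5 also had an adjusted P above that limit with a replicate block (0.0824), with only the groups compared in the fit (0.0737), with no filter on low values (0.0651), by median-ratio scaling (0.38; 0.464 with the block) and with the GC correction (0.226). APOPT1 was at 0.0593 with only the groups compared.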

How the results depend on the processing

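Values of the members were recomputed under 11 alternatives and without each of the 9 libraries. Of 354 recomputed differences of single members, 328 kept their direction and side of the limits. The count of members that fell against both groups, 0, became 1 (PLEKHG2) with 0.1 FPKM added and 2 (ING5 and PLEKHG2) with no fold change limit; the counts between the siRNAs became 1 lower with 0.1 FPKM added, and 2 lower and 3 higher with no limit. With no limit 2 rose with si-LINC00673-1, and with a limit of 1.5 none rose with si-LINC00673-2 and 1 fell with si-LINC00673-1. At a mean of at least 5 FPKM, 1 fell with each siRNA, since PLEKHG2 is then not tested. Without single libraries each of these counts stayed at 0 or 2.

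All genes that fell against both groups were 449, and 880 with 0.1 FPKM added, 210 at 5 FPKM, 3304 with no limit, 82 at 1.5, 212 by median-ratio scaling, 165 with the GC correction (GC known for 88.4% of genes) and 213 with scaling and the replicate block. The least and most calls were 1591 and 5928 lower, 679 and 3468 higher for si-LINC00673-2 against si-NC, 124 and 5062, 100 and 1635 between the siRNAs, and 1030 and 4366, 543 and 4358 for si-LINC00673-1, at a limit of 1.5 and none.

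APOPT1 against si-NC turned to 0.0095 by scaling, with and without the block. SYNE2 turned to 0.075 against si-NC and 0.047 between the siRNAs by scaling, and to 0.033, 0.075 and, for si-LINC00673-1, -0.042 with the GC correction; without single libraries it ran from -0.057 to 0.031, from -0.087 to 0.0043 and from -0.016 to 0.073. The cause was not tested.

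Replicate labels did not pair the libraries (r of same-label deviations -0.239 to 0.104). With the replicate block 2 members fell and 2 rose against si-NC, 0 passed between the siRNAs, and all genes that fell against si-NC were 2983. Depth limits NFASC, and gene-level values limit what can be said of site-bearing transcripts.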
